A study of Mus musculus with 11 samples.

Results

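Mouse embryonic fibroblasts without an intact copy of Actb, the gene for cytoplasmic β-actin, were compared with fibroblasts that have both copies. The comparison used the tables of FPKM (fragments per kilobase of transcript, scaled to sequencing depth) of 7 of the 11 libraries in the series, those titled knockout 1, 3 and 4 (genotype Actb -/-, called KO) and wild type 1 to 4 (genotype Actb +/+, called WT). The remaining 4 libraries (genotype Actb +/-, called Het) entered the estimate of spread, and their values are given beside some results. All groups were BALB/c cells, taken from embryos of 10.5 days and grown in high-glucose medium with 10% fetal bovine serum. Cells were harvested in TRI Reagent when 70% confluent, and libraries were prepared with a stranded kit that selects mRNA. The submitters left out 1 further KO library at quality control, and it is not analysed here. The study describes its replicates as biological. Neither separate embryos nor separate cultures are named in the labels, nor is it stated whether the KO cells are 1 line, so p-values measure only the spread between these samples, and that spread may be technical. The 46469 gene symbols of the tables were all considered, of which 14940 were expressed enough to be tested. The account concerns genes other than the actin and contractile genes, and the comparison asks which other genes and programmes differ when β-actin is missing, including genes that pass between absent and expressed.

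β-actin forms filaments in the cytoplasm and is also found in the nucleus as actin monomers, where it is a subunit of chromatin remodelling complexes such as BAF and INO80 and takes part in transcription. Fibroblasts are mesenchymal cells that make collagen and other matrix proteins, and the set of Hox and other homeobox genes they express differs with the place in the body from which they come. A change in a gene's level in a bulk sample of such cells can come from a change in every cell or from a change in the share of cells that express it, and fewer cells of a type and less RNA per cell cannot be told apart here.

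The targeted gene was read first. Actb measured 1074, 1466, 1276 and 1586 FPKM in WT 1 to 4 and 42.2, 42.8 and 45.4 FPKM in KO 1, 3 and 4. The KO libraries all lay far below the WT libraries, and the difference was -4.81 on the log2(FPKM + 1) scale (adjusted p = 8.46e-11, limma with Benjamini-Hochberg adjustment over all genes tested, as for every adjusted p below). The level left in KO is read from fragments that match the gene model, and the part of the gene that was deleted is not given in the sources used here. Among the 7 tested neighbours within 250 kb of Actb on chromosome 5, 1 rose and none fell. It was Tnrc18, with 3.62, 6.36, 4.51 and 11.3 FPKM in WT 1 to 4 and 11.3, 14.4 and 20.99 FPKM in KO 1, 3 and 4 (1.31, adjusted p = 0.00495). Its highest WT library (WT 4) and its lowest KO library (KO 1) were nearly equal. Fscn1 and Fbxl18, also neighbours, were not called (0.43 and 0.70, adjusted p = 0.173 and 0.109), but passed the threshold without WT 4 (0.65 and 0.95, adjusted p = 0.0137 and 0.0163), as Fbxl18 did without KO 1 (0.97, adjusted p = 0.0485).

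Depth relative to WT 1 lay between 60.7% (WT 3) and 125.7% (WT 4), with 65.5% in KO 1, and the number of genes at or above 1 FPKM ran from 13885 to 14202 per library. Correlations of log2 values over genes were 0.947 to 0.978 within WT, 0.969 to 0.977 within KO and 0.907 to 0.934 between them. Xist, the RNA made from a silenced X chromosome, was between 0.0330 and 0.0599 FPKM in all WT and KO libraries and averaged 49.99 FPKM in Het. The Y-linked genes Ddx3y, Eif2s3y, Kdm5d and Uty did not exceed 0.252 FPKM in any WT or KO library, and the labels do not give the sex of the embryos. Fibroblast markers were present. Of 14 such genes 13 were tested, 10 rose in KO and none fell, against 23.3% higher and 23.8% lower of all genes. Their summed level was 1500 to 2052 FPKM in WT and 3457 to 4170 FPKM in KO. Lum was listed at 0 in all 7 libraries. Some markers of other cell types were listed at 0 in all 7 libraries: Ptprc and Tyrobp (blood), Tie1 and Emcn (endothelium) and Sox10 (neural crest). So were Myod1, Myog and Pax7 (muscle) and Pou5f1 and Sox2 (pluripotent cells). Other members of these lists were expressed. The only tested endothelial marker, Flt1, was called lower (-0.68), as was Erbb3 of the neural crest list (-0.86). The only tested skeletal muscle marker was called higher (0.61). Cd68, of the blood list, averaged 1.9 FPKM in WT and 2.7 FPKM in KO and was not called. Neuronal markers summed to 20.46 to 28.67 FPKM in WT and 24.74 to 26.45 FPKM in KO. Nanog, of the same list as Pou5f1 and Sox2, measured 2.09, 1.86, 2.12 and 1.66 FPKM in WT 1 to 4 and 2.70, 2.69 and 2.89 FPKM in KO 1, 3 and 4 and was called higher (0.43, adjusted p = 0.00125). The summed epithelial markers were 30.2 to 77.9 FPKM in WT and 27.8 to 45.2 FPKM in KO, most of it Krt19 (43.8 ± 20.7 and 36.1 ± 8.82 FPKM, not called). Pericyte and mesothelial markers summed to 31.7 to 45.1 FPKM in WT and 14.8 to 18.6 FPKM in KO, most of it Msln, which measured 26.8, 39.1, 30.4 and 37.0 FPKM in WT 1 to 4 and 16.2, 13.4 and 17.4 FPKM in KO 1, 3 and 4 and fell (-0.94, adjusted p = 9.45e-05). Cardiac markers summed to 5.81 to 12.4 FPKM in WT and 26.2 to 28.7 FPKM in KO, and of the 3 tested only Tnnt2 rose (1.324 and 21.04 FPKM in WT and KO), while Gata4 and Nkx2-5 differed by 0.01 and -0.02 (adjusted p = 0.948 and 0.971). Gata4 lies on chromosome 14 and was called after centring by position (0.52, adjusted p = 0.000654), a setting described below. The part of such cells in the results below was not tested.

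Differences were widespread and mostly small. Of the 14940 genes tested, 47.1% were called, 3481 (23.3%) higher and 3560 (23.8%) lower in KO. Of the called genes 5915 differed by less than 2-fold, and the median absolute log2 difference of all called genes was 0.53. At 2-fold or more, 722 genes (4.83%) were higher and 404 (2.70%) lower in KO, and at a log2 difference of 4 or more 17 were higher and 9 lower. The WT and KO libraries did not overlap in 7303 genes (48.9%). The balance of directions was not fixed. Higher genes made up 49.4% of the calls with the scaling used, 44.4% after quantile normalization and 37.1% without scaling, which moved the median of all genes to -0.08. The share was 50.6% with a replicate block, 50.5% without WT 4 and 51.4% without chromosome 14, so which direction held more calls depended on these choices. The 499 long noncoding RNA genes tested had 33 members at least 2-fold higher and 9 at least 2-fold lower, against 640 and 352 of 11512 protein-coding genes.

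**Figure D1:**
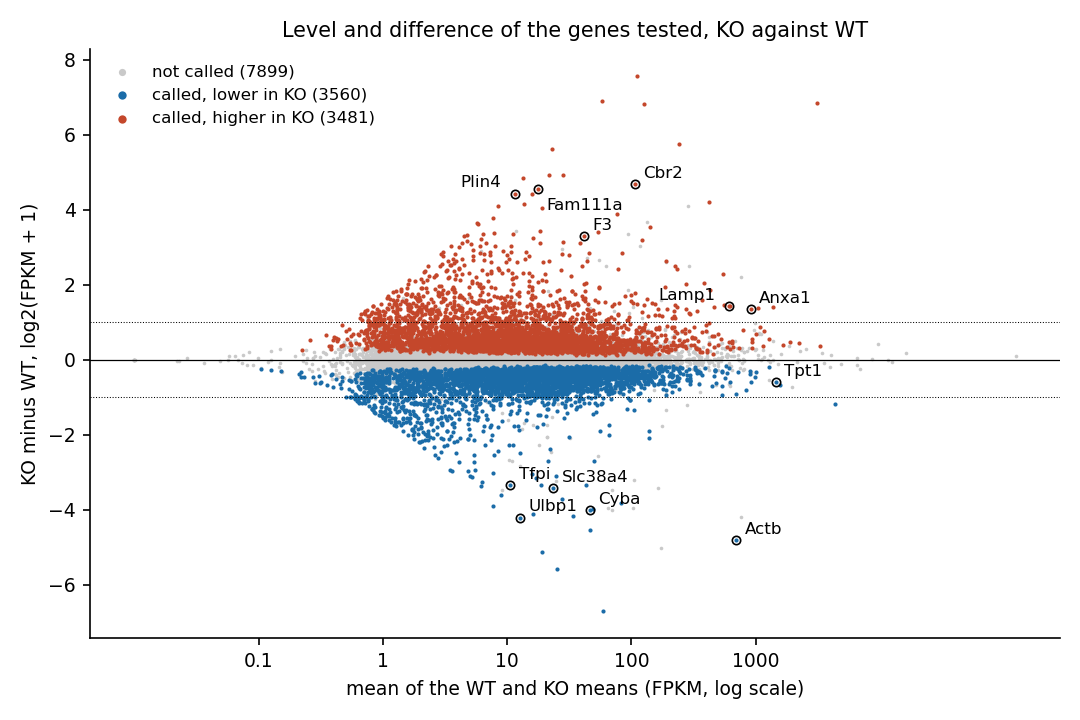
Level (mean of the WT and KO means, FPKM on a log axis) and difference (KO minus WT, log2(FPKM + 1)) of the 14940 genes tested. Each point is a gene, red points are the 3481 genes called higher in KO, blue points the 3560 called lower and grey points the genes not called, dotted lines mark 2-fold, and most called genes lie between them.

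Some genes passed from absent to expressed or back. A gene counted as switched on in KO when it was under 0.1 FPKM in every WT library and at least 1 FPKM in every KO library, and as switched off in the reverse case. By this rule 20 of 46469 symbols were switched on (0.043%) and 31 switched off (0.0667%), of which 14 and 26 were protein-coding. These genes were chosen on this contrast, so their values are a description and carry no test. By comparison, 12654 symbols were at 1 FPKM or more in all 7 libraries. Just outside the rule, with the absent group under 0.2 FPKM, lay 27 further genes on the side of KO and 31 on the side of WT. The phagocytic receptor gene Megf10 was one of them (0.0808, 0.116, 0.0444 and 0.0645 FPKM in WT 1 to 4 and 11.7, 11.8 and 11.4 FPKM in KO 1, 3 and 4), kept out by WT 2 alone. At the edge within the rule was Aldh3a1, an aldehyde dehydrogenase (1.18, 1.45 and 1.25 FPKM in KO 1, 3 and 4, and at most 0.0675 FPKM in WT).

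Promoters of switched genes are shown because their content of CG dinucleotides, the sites of DNA methylation, is described here. The 300 bases around the start site (250 before and 50 after) were taken from RefSeq on GRCm38.p6 where a start lay within 1000 bases of the start of the deposited locus, for 9 of the 14 protein-coding genes switched on, 16 of the 26 switched off and 8076 of all 11512 tested. The median number of CG dinucleotides was 6 in the genes switched on, 19.5 in those switched off and 22 in all. Fewer than 6 were found in 4 of 9 promoters of genes switched on (44.4%), in 1 of 16 of genes switched off (6.25%) and in 5.93% of all. The motif TATAAA, searched on the gene's strand in the 50 bases before the start, was in none of these promoters of switched genes and in 1.23% of all. The count is a description of this window and was not tested. The 150 bases before the start site follow for the 4 genes with the highest level in each direction among those with a gene name other than a predicted one, whose RefSeq start lay within 10 bases of the deposited start and whose window did not reach into the deposited locus, in the direction of transcription, with each CG in capitals. The rule on names left out 2610318N02Rik, which held 5 CG in its window and was switched off from a level above that of Kcnk5. Those of Hoxd8 (chr2:74704465-74704614, + strand), Hoxd9 (chr2:74697613-74697762, + strand), Col6a3 (chr1:90843972-90844121, - strand) and Klra4 (chr6:130067272-130067421, - strand) belong to genes switched on.
Hoxd8: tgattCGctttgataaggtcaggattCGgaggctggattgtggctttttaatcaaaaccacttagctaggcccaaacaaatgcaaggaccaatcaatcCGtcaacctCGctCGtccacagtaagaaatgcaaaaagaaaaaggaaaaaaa
Hoxd9: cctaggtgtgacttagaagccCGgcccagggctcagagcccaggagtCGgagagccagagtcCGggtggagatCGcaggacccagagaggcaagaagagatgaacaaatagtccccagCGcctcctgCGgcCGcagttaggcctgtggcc
Col6a3: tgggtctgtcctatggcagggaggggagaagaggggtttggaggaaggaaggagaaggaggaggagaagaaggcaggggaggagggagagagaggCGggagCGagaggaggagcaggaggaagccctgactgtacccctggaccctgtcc
Klra4: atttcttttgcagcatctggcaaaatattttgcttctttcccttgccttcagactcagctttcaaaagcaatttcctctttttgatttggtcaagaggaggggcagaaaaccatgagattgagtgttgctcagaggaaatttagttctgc
Those of Efemp1 (chr11:28853055-28853204, + strand), Gpx7 (chr4:108406714-108406863, - strand), Cspg4 (chr9:56864954-56865103, + strand) and Kcnk5 (chr14:20181783-20181932, - strand) belong to genes switched off.
Efemp1: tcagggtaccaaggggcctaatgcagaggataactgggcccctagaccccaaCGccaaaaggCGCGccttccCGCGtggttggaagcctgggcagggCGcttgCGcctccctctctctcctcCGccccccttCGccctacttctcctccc
Gpx7: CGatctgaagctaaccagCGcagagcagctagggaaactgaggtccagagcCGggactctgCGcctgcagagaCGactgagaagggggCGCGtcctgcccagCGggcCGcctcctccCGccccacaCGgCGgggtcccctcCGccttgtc
Cspg4: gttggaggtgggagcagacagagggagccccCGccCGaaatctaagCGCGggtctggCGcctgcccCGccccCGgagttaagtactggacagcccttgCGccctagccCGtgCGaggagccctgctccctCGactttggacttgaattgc
Kcnk5: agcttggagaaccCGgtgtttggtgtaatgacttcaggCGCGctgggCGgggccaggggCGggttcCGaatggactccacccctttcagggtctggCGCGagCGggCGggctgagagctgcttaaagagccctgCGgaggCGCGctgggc
The windows of the genes switched off held 9 (Efemp1), 13 (Gpx7), 11 (Cspg4) and 13 (Kcnk5) CG, and those of the genes switched on held 5 (Hoxd8), 7 (Hoxd9), 2 (Col6a3) and none (Klra4).

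Among the genes switched on were patterning regulators. Alx1, a homeobox factor of craniofacial mesenchyme, was the protein-coding gene with the highest level (0.0430, 0, 0 and 0.0687 FPKM in WT 1 to 4 and 11.3, 10.3 and 12.4 FPKM in KO 1, 3 and 4). Its neighbour Slc6a15 and the uncharacterised gene Gm34298 between them were also at least 2-fold higher in KO. Of the HoxD cluster, Hoxd8 measured 0.0667, 0.0639, 0 and 0 FPKM in WT 1 to 4 and 7.13, 9.90 and 9.72 FPKM in KO 1, 3 and 4, and Hoxd9 and Hoxd4 lay between 1.36 and 2.08 FPKM in KO and at or below 0.0167 FPKM in WT. These 3 neighbouring genes were the HoxD members tested, and the other 6 were too low to test. The forkhead gene Foxs1 was listed at 0 in all WT libraries and measured 1.62, 2.997 and 1.93 FPKM in KO 1, 3 and 4. Zfp521, a zinc finger gene on chromosome 18, was between 0.0498 and 0.0663 FPKM in WT and measured 2.99, 3.45 and 2.92 FPKM in KO 1, 3 and 4.

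Matrix, membrane and signalling genes were also switched on. Col6a3, the α3 chain of collagen VI, measured 0.0223, 0, 0.0184 and 0.0370 FPKM in WT 1 to 4 and 7.08, 7.55 and 6.49 FPKM in KO 1, 3 and 4. Jph2 encodes junctophilin 2, which ties the cell membrane to the calcium store in muscle cells, and it was listed at 0 in 3 WT libraries and measured 5.47, 5.78 and 6.42 FPKM in KO 1, 3 and 4. Adcyap1r1, the receptor for the neuropeptide PACAP, measured 0.0446, 0.0451, 0.00950 and 0.0237 FPKM in WT 1 to 4 and 4.54, 4.66 and 4.49 FPKM in KO 1, 3 and 4. Kit, the receptor for stem cell factor, was low even where it was on (1.48, 1.30 and 1.32 FPKM in KO 1, 3 and 4), and the same held for Aldh1a7 (1.37, 1.40 and 1.6 FPKM in KO 1, 3 and 4). Klra4, a receptor gene of natural killer cells, was listed at 0 in all WT and all Het libraries and measured 5.93, 6.57 and 5.63 FPKM in KO 1, 3 and 4. It is the sum of 2 near-identical loci and belongs to a family of close copies, so its identity is uncertain. The other 6 genes were 2 microRNA loci, which are shorter than the library's fragments and whose FPKM are therefore unreliable, and uncharacterised loci.

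Of 538 tested genes in the lists of transcription regulators 6 were switched on and 3 switched off. Over all 11512 protein-coding genes tested, 14 were switched on and 26 switched off. Among the regulators switched off Zic1, a zinc finger factor of the early nervous system, measured 5.18, 5.09, 4.16 and 7.48 FPKM in WT 1 to 4 and 0.00238, 0.00932 and 0.0310 FPKM in KO 1, 3 and 4. Hoxc9 measured 2.012, 1.18, 1.496 and 1.66 FPKM in WT 1 to 4 and 0, 0 and 0.0643 FPKM in KO 1, 3 and 4, in the opposite direction to the 3 HoxD genes. Pou3f1, a POU domain factor of neural and glial cells that is in none of these lists, lay between 1.16 and 2.30 FPKM in WT and at or below 0.0535 FPKM in KO. Zfp182, a zinc finger gene of chromosome X, lay between 1.76 and 2.70 FPKM in WT and at or below 0.0171 FPKM in KO.

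Other genes switched off included membrane, matrix and enzyme genes. Tenm3, a teneurin that joins cells across their membranes, was the highest protein-coding gene switched off (6.75, 6.84, 7.45 and 7.32 FPKM in WT 1 to 4 and 0.0465, 0.00132 and 0.0271 FPKM in KO 1, 3 and 4). Cspg4, the NG2 proteoglycan of pericytes and progenitor cells, measured 2.17, 4.30, 2.996 and 6.23 FPKM in WT 1 to 4 and 0, 0 and 0.0373 FPKM in KO 1, 3 and 4, with WT 1 lowest and WT 4 highest. Efemp1, the matrix protein fibulin-3, measured 4.86, 5.85, 5.23 and 4.81 FPKM in WT 1 to 4 and 0, 0.0737 and 0.0734 FPKM in KO 1, 3 and 4. Gpx7, a glutathione peroxidase of the endoplasmic reticulum, and Fam213b, which encodes a prostaglandin F synthase, were listed at 0 in all KO libraries and measured 3.60, 4.10, 4.96 and 4.35 FPKM in WT 1 to 4 and 5.23, 5.33, 7.78 and 9.43 FPKM in WT 1 to 4. Ephx2, the soluble epoxide hydrolase, measured 3.70, 3.75, 3.63 and 2.99 FPKM in WT 1 to 4 and 0, 0.0548 and 0 FPKM in KO 1, 3 and 4. Kcnk5, a potassium channel, and the matrix gene Col11a1 were lower still where they were on, at 2.34 to 3.18 FPKM and 1.11 to 1.34 FPKM in WT. Snord33, a small nucleolar RNA locus, had the largest WT level among the genes switched off (69.1, 67.3, 116 and 225 FPKM in WT 1 to 4) and was listed at 0 in KO, but such short RNAs are poorly sampled by these libraries.

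The Het libraries were not used to choose the genes. Of the 20 genes switched on in KO, 2 (Col6a3 and Zfp521) were at 1 FPKM or more in all 4 Het libraries, 6 were under 0.1 FPKM in all 4, and 12 lay between. Of the 31 switched off, 9 were at 1 FPKM or more in all 4 Het libraries, 5 were under 0.1 FPKM in all 4, and 17 lay between. Efemp1 averaged 45.9 FPKM in Het, above both WT and KO, as did Gpx7 (9.62 FPKM) and Hoxc9 (3.33 FPKM). Zic1 averaged 0.0173 FPKM in Het and was as low there as in KO.

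**Figure D2:**
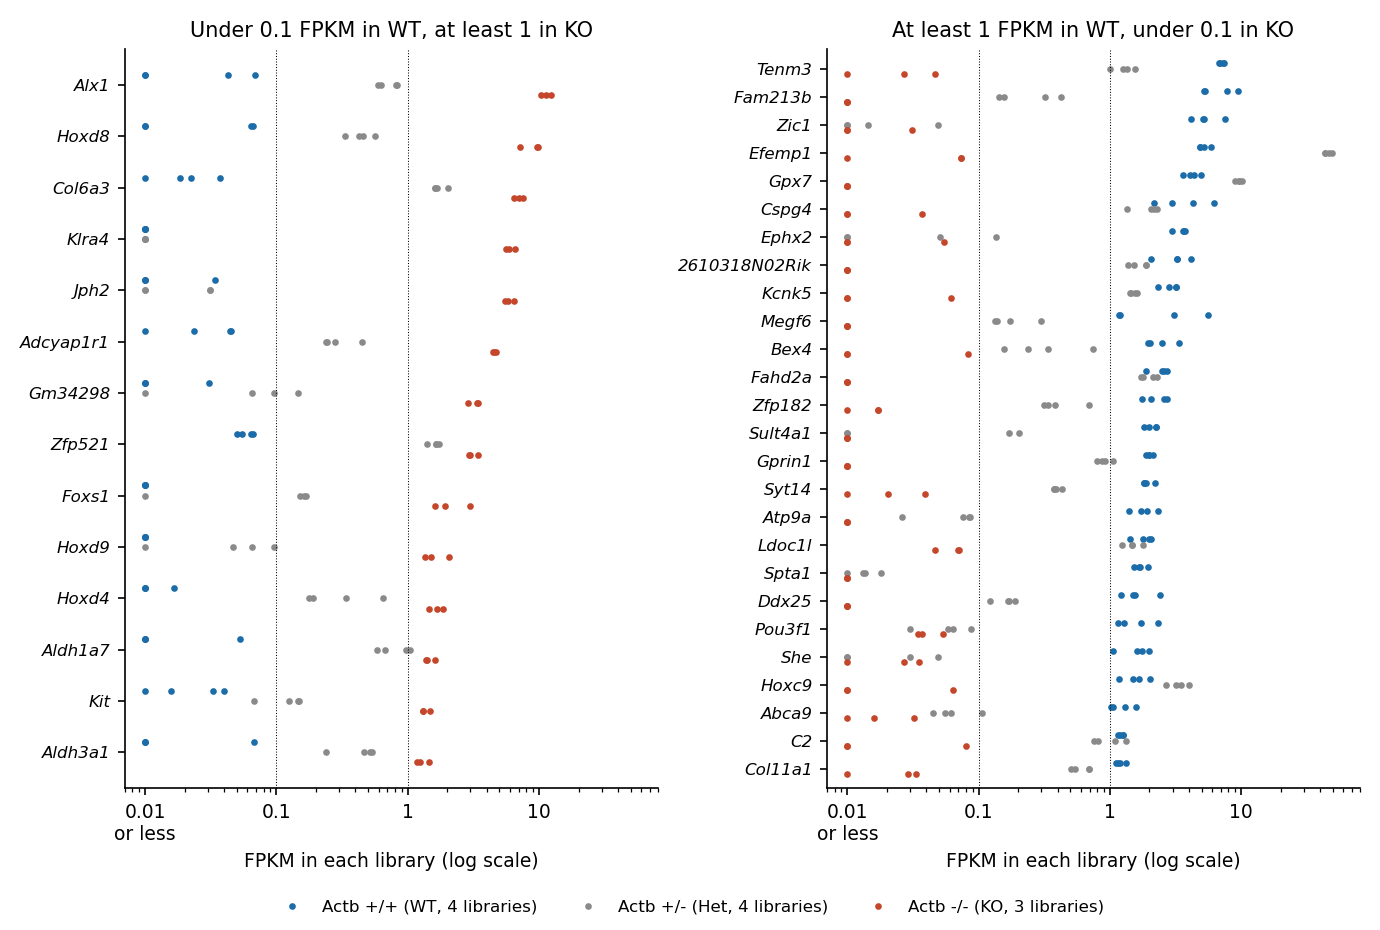
FPKM of each library (log axis, values of 0.01 or less drawn at 0.01) for the 14 protein-coding genes switched on (left) and the 26 switched off (right) in KO. Blue points are WT, grey Het and red KO, dotted lines mark 0.1 and 1 FPKM, and the Het points lie on either side of and between the 2 groups.

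With actin and contractile genes left out, the largest rises at a level of 5 FPKM or more were in enzymes, lipid droplet and matrix genes, among others. Cbr2, a carbonyl reductase, rose to 26.9 times its WT mean (7.14, 9.42, 6.53 and 7.33 FPKM in WT 1 to 4 and 197, 198 and 220.2 FPKM in KO 1, 3 and 4). Plin4, a coat protein of lipid droplets, was at or below 0.261 FPKM in WT and measured 21.8, 22.9 and 23.7 FPKM in KO 1, 3 and 4. Fam111a, which encodes a protease of the nucleus, measured 0.592, 0.661, 0.758 and 0.446 FPKM in WT 1 to 4 and 35.2, 36.4 and 33.5 FPKM in KO 1, 3 and 4. The matrix genes Postn and Mgp rose as well, from at most 0.453 FPKM and 1.22 FPKM in WT to 17.3, 16.9 and 11.2 FPKM in KO 1, 3 and 4 and 32.9, 26.6 and 33.4 FPKM in KO 1, 3 and 4. Fam150a, a secreted ligand of the receptor tyrosine kinases ALK and LTK, measured 0.3, 0.287, 1.48 and 0.718 FPKM in WT 1 to 4 and 23.3, 28.9 and 27.0 FPKM in KO 1, 3 and 4 (4.14, adjusted p = 1.28e-07). Meg3 and Rian, noncoding RNAs of an imprinted domain, rose by 4.93 each, and both are sums of 2 loci. The rule that chose these genes required groups that do not overlap.

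The largest falls chosen in the same way included surface, secreted and immune genes. Cthrc1, a secreted protein of collagen-making cells, measured 48.1, 48.3, 54.75 and 48.5 FPKM in WT 1 to 4 and 0, 0.110 and 0 FPKM in KO 1, 3 and 4, and Pdpn, podoplanin, measured 43.5, 34.6, 39.97 and 35.4 FPKM in WT 1 to 4 and 0.188, 0.0734 and 0.0609 FPKM in KO 1, 3 and 4; both are sums of 2 loci. Cyba, a membrane subunit of NADPH oxidase, measured 43.1, 105, 62.8 and 146 FPKM in WT 1 to 4 and 3.77, 4.06 and 3.497 FPKM in KO 1, 3 and 4, with WT libraries far apart that all lay above KO. Slc38a4, an amino acid transporter, measured 45.8, 42.6, 47.5 and 40.97 FPKM in WT 1 to 4 and 2.75, 3.21 and 2.93 FPKM in KO 1, 3 and 4 (-3.43, adjusted p = 1.18e-10). Cd34, a sialomucin of progenitor cells, fell to 0.434, 0.475 and 0.484 FPKM in KO 1, 3 and 4 from 16.4 to 18.8 FPKM in WT. Ulbp1, a ligand of the natural killer receptor NKG2D, fell from 22.9 to 29.6 FPKM in WT to 0.711, 0.249 and 0.181 FPKM in KO 1, 3 and 4.

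Among abundant genes, with a mean of at least 100 FPKM, those with the largest change in FPKM were read. Tmsb4x, which encodes the actin monomer-binding peptide thymosin β4, measured 206, 184, 215 and 182 FPKM in WT 1 to 4 and 940.0, 899.5 and 837 FPKM in KO 1, 3 and 4 (2.28, adjusted p = 1.42e-08). Lamp1, a membrane protein of lysosomes, measured 337, 336, 362 and 344 FPKM in WT 1 to 4 and 844, 875 and 905 FPKM in KO 1, 3 and 4 (1.44, adjusted p = 1e-08). Anxa1, a calcium-dependent membrane-binding protein, measured 586, 508, 593 and 476 FPKM in WT 1 to 4 and 1314, 1286 and 1242 FPKM in KO 1, 3 and 4 (1.35, adjusted p = 1.28e-06). S100a4, a calcium-binding protein, measured 378, 318, 378 and 332 FPKM in WT 1 to 4 and 862, 829 and 976 FPKM in KO 1, 3 and 4. The intermediate filament gene Vim rose by 0.77 and Lgals1, a galactose-binding lectin, by 0.36, although the call of Lgals1 was lost after centring by position (below) and without a filter on low values. The largest fall in FPKM was that of TrnL1, a mitochondrial tRNA (6205, 7818, 6327 and 4601 FPKM in WT 1 to 4 and 2344, 2334 and 2885 FPKM in KO 1, 3 and 4, -1.19, adjusted p = 0.000225), followed by the tRNA gene TrnA, whose groups overlapped (2011, 1359, 2124 and 2368 FPKM in WT 1 to 4 and 1574, 1040.0 and 871 FPKM in KO 1, 3 and 4, -0.67, adjusted p = 0.0436) and whose call was lost without any 1 of WT 1, WT 3, WT 4, KO 3 and KO 4 (adjusted p from 0.0793 to 0.18). Both are shorter than the library's fragments, so their FPKM are unreliable. Ubb, a ubiquitin gene, measured 726, 1045, 942 and 1053 FPKM in WT 1 to 4 and 444, 463 and 482 FPKM in KO 1, 3 and 4 and fell (-0.91, adjusted p = 4.18e-05). Tpt1, an abundant growth-related protein, measured 1912, 1695, 1920.0 and 1687 FPKM in WT 1 to 4 and 1102, 1102 and 1143 FPKM in KO 1, 3 and 4 and fell (-0.59, adjusted p = 9.12e-05). Rps24, a ribosomal protein gene, measured 1246, 1016, 1157 and 942 FPKM in WT 1 to 4 and 619, 565 and 567 FPKM in KO 1, 3 and 4 and fell (-0.79, adjusted p = 0.000109). Tpt1 and Rps24 both lie on chromosome 14, which is described next.

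Genes of some chromosomes moved together. For 8602 protein-coding genes with a mean of at least 5 FPKM the log2 difference in scaled FPKM was taken, and each library's median over a chromosome was read against its median over all genes and the WT mean. On chromosome 14 the median difference of KO from WT was -0.70, a ratio of 0.616, and 266 of its 291 genes (91.4%) were lower in KO, against 49.5% of all genes. The chromosome 14 median was 0.04, -0.02, 0.03 and -0.06 in WT 1 to 4, -0.68, -0.70 and -0.71 in KO 1, 3 and 4, and between -0.19 and -0.14 in the 4 Het libraries. All 9 windows of 10 Mb with at least 8 genes on it were lower, with medians from -0.76 to -0.50. Of 243 such windows in the genome 14 had a median at or below -0.5, of which 9 were these. In the test across all genes, 317 of the 529 genes of chromosome 14 fell and 52 rose. This pattern was noticed after the values were seen. DNA copy number was not measured in these files, and the cause was not tested.

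Other chromosomes were shifted by less as a whole, or in part. Chromosome 12 was higher (median 0.35, with 39 of 295 genes lower), in all of its 11 windows, and lay between 0.33 and 0.39 in KO and -0.06 and 0.06 in WT. Chromosome 5, which carries Actb, was higher by 0.23. Chromosome 2 was split: genes in its first 60 Mb had a median of 0.12, whereas 370 of 461 genes further along were lower, with a median of -0.40 in KO and 0.05 in Het. On chromosome 6 all 33 genes in the first 20 Mb were higher (median 0.64), against a median of 0.13 over the rest. The windows of the first 20 Mb of chromosome 8 had medians of 0.80 and 0.65, while all further windows of that chromosome lay between -0.18 and 0.07. The 4 windows of chromosome X from 130 Mb had medians of -0.49, -0.73, -0.53 and -0.48. Chromosome 13 was lower in both KO (-0.29) and Het (-0.37), comparisons that share the WT libraries. In all, the WT and KO libraries lay apart on 10 of 20 chromosomes. Lying apart did not require a large shift. Chromosome 10 was among these, with a median difference of only -0.01 and WT libraries between -0.0007 and 0.003. The widest spread within WT was on chromosome 7, from -0.15 to 0.15.

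**Figure D3:**
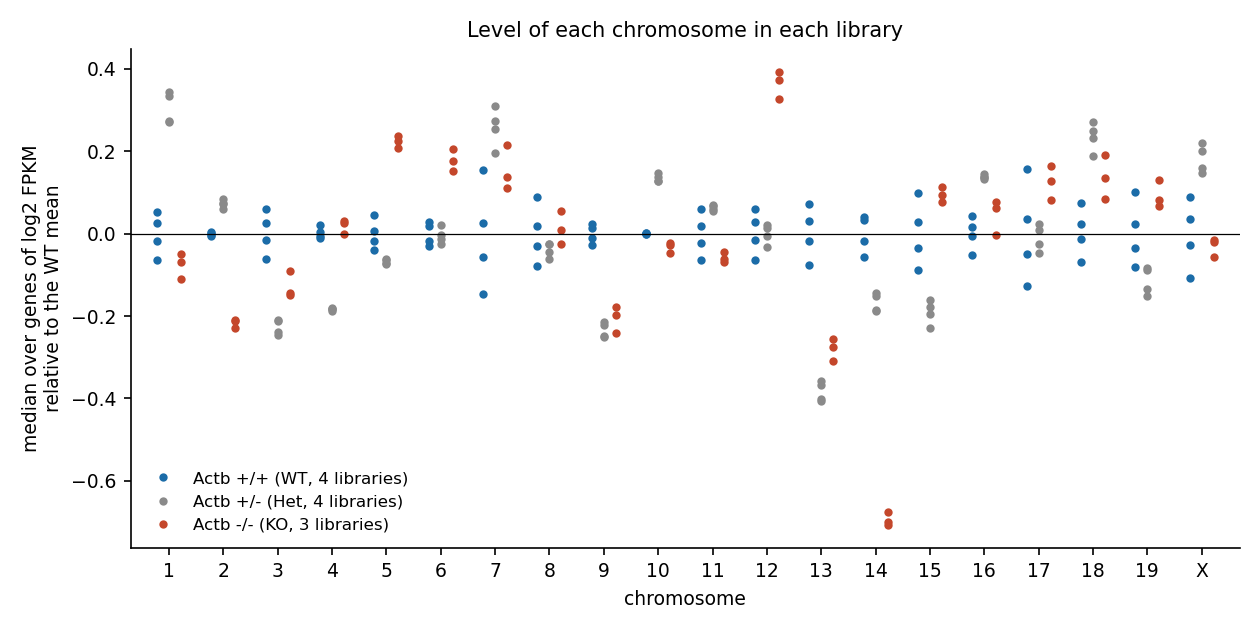
Median over protein-coding genes of the log2 FPKM of each library relative to the WT mean, for each chromosome and relative to the library's median over all genes. Each point is a library (blue WT, grey Het, red KO), and on chromosome 14 the 3 KO libraries lie between -0.71 and -0.68 while the WT libraries lie between -0.06 and 0.04.

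**Figure D4:**
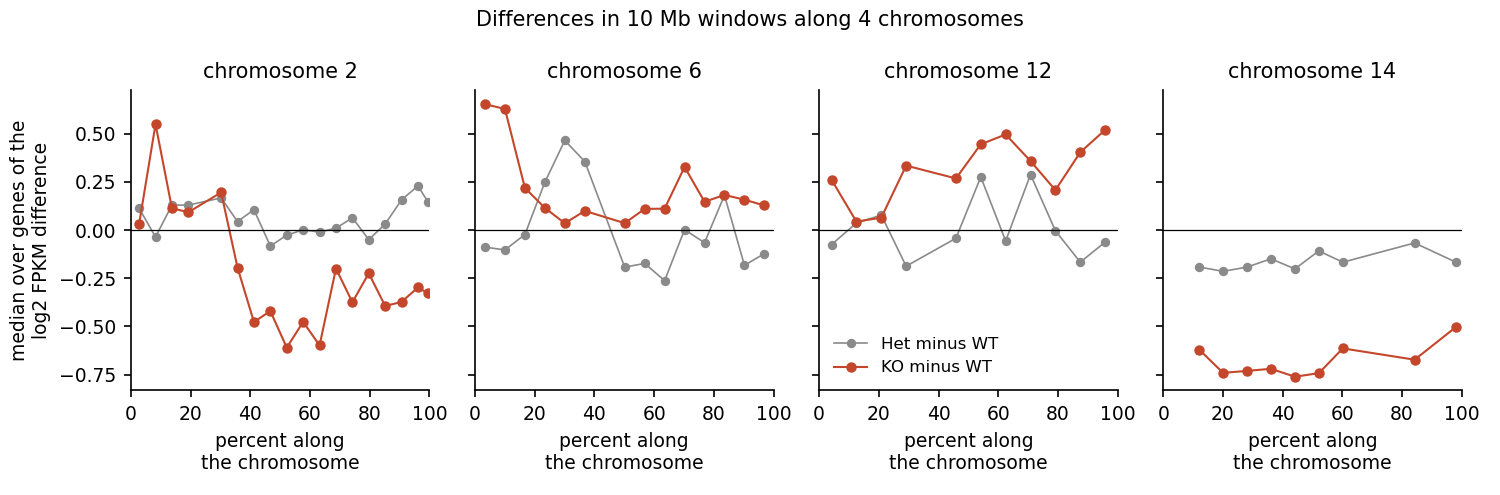
Median log2 FPKM difference from WT in windows of 10 Mb along chromosomes 2, 6, 12 and 14, against position in percent of the chromosome. Red is KO and grey Het, and KO is below 0 in all 9 windows of chromosome 14, above 0 in all of chromosomes 6 and 12, and changes sign along chromosome 2.

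Because a shift of a whole region adds to the difference of every gene in it, the fit was repeated with each library centred within windows of 20 Mb, an alternative chosen after the data were seen. It called 6736 genes, of which 5507 were also among the 7041, with 703 at least 2-fold higher and 348 at least 2-fold lower. Without the genes of chromosome 14, 6653 were called. Of 254 called genes named by the rule 14 lost their call after centring, among them Tpt1 (-0.08, adjusted p = 0.299) and Lgals1 (0.26, adjusted p = 0.0937), and 2 further genes gained one. Differences given in the text that moved by more than 1.5 times and were still called were those of Lamp1 (0.96) and Mcoln1 (0.93), in the first 20 Mb of chromosome 8, of Rps24 (-0.23), Psmc6 (-0.55) and Sucla2 (-0.19) on chromosome 14, and of Anxa2 (-0.38), Fgf10 (0.75) and Mrps36 (-0.46). Where a list depended on position the centred value is given beside it.

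Changed genes also lay side by side on a finer scale. Runs of at least 2 neighbouring tested protein-coding genes that were called and at least 2-fold changed in the same direction held 135 of the 640 such genes that were higher (60 runs) and 61 of the 352 that were lower (24 runs). The longest run lower in KO was 7 major histocompatibility genes from H2-D1 to H2-Q10 on chromosome 17, followed by 5 genes with Gbp7, Gbp3, Gbp2b and Gbp2 on chromosome 3 and by Psmb9, Tap1, Psmb8 and Tap2 on chromosome 17. Among the runs higher in KO were Ly6a, Ly6c1 and Ly6c2 on chromosome 15, Atp2b4, Optc and Fmod on chromosome 1, and Irs2, Col4a1 and Col4a2 on chromosome 8. These runs were found after the values were seen and have no test. Several consist of near-identical copies, whose reads the authors' counting may have shared out among them.

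Transcription regulators other than the Zfp genes were more often higher than lower. Of 238 tested, 100 rose and 47 fell, with a median of 0.23 (all genes 0.01, 23.3% higher and 23.8% lower). The 300 zinc finger genes named Zfp showed no such imbalance, with 50 higher, 49 lower and a median of 0.00, which became 35 and 75 and -0.08 without scaling. Forkhead factors had 13 of 22 higher and 1 lower (median 0.50), nuclear receptors 12 of 22 and 1 (0.47), and Krüppel-like factors 8 of 13 and 4 (0.67). After centring by position these counts were 12 and 1, 13 and 1, and 7 and 4.

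Among single regulators Foxa1, a forkhead factor of endoderm, rose from low levels (0.104, 0.316, 0.166 and 0.210 FPKM in WT 1 to 4 and 5.74, 6.45 and 5.03 FPKM in KO 1, 3 and 4). Foxf1, a forkhead factor of the mesenchyme around gut and lung, was the 1 forkhead gene that fell (4.44, 3.65, 3.5 and 4.78 FPKM in WT 1 to 4 and 0.473, 0.132 and 0.197 FPKM in KO 1, 3 and 4, -1.97, adjusted p = 3.51e-07). Msx2, a homeobox factor of skull and limb, measured 1.04, 0.921, 1.49 and 1.47 FPKM in WT 1 to 4 and 13.6, 13.3 and 13.4 FPKM in KO 1, 3 and 4. Npas4, a factor known from active neurons, rose from at most 0.236 FPKM in WT to 4.49, 5.87 and 6.19 FPKM in KO 1, 3 and 4. Id3, an inhibitor of helix-loop-helix factors, was higher by 1.92 (adjusted p = 0.00418), but its WT libraries reached from 12.01 to 50.21 FPKM and WT 4 lay above KO 1 (49.6 FPKM). The T-box factor Tbx20 fell (9.25, 8.53, 8.84 and 7.84 FPKM in WT 1 to 4 and 1.89, 1.79 and 2.62 FPKM in KO 1, 3 and 4), as did the helix-loop-helix gene Tcf24 (-1.91), Ahrr, the repressor of the aryl hydrocarbon receptor (-1.59), and Zfp13 (-1.81). HoxA genes had 8 of 10 higher with Hoxa9 highest (1.74), HoxB genes 6 of 9 higher and 1 lower. HoxC genes had 5 of 8 lower with Hoxc4 lowest (-1.68). Over all genes 23.3% were higher and 23.8% lower.

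**Figure D5:**
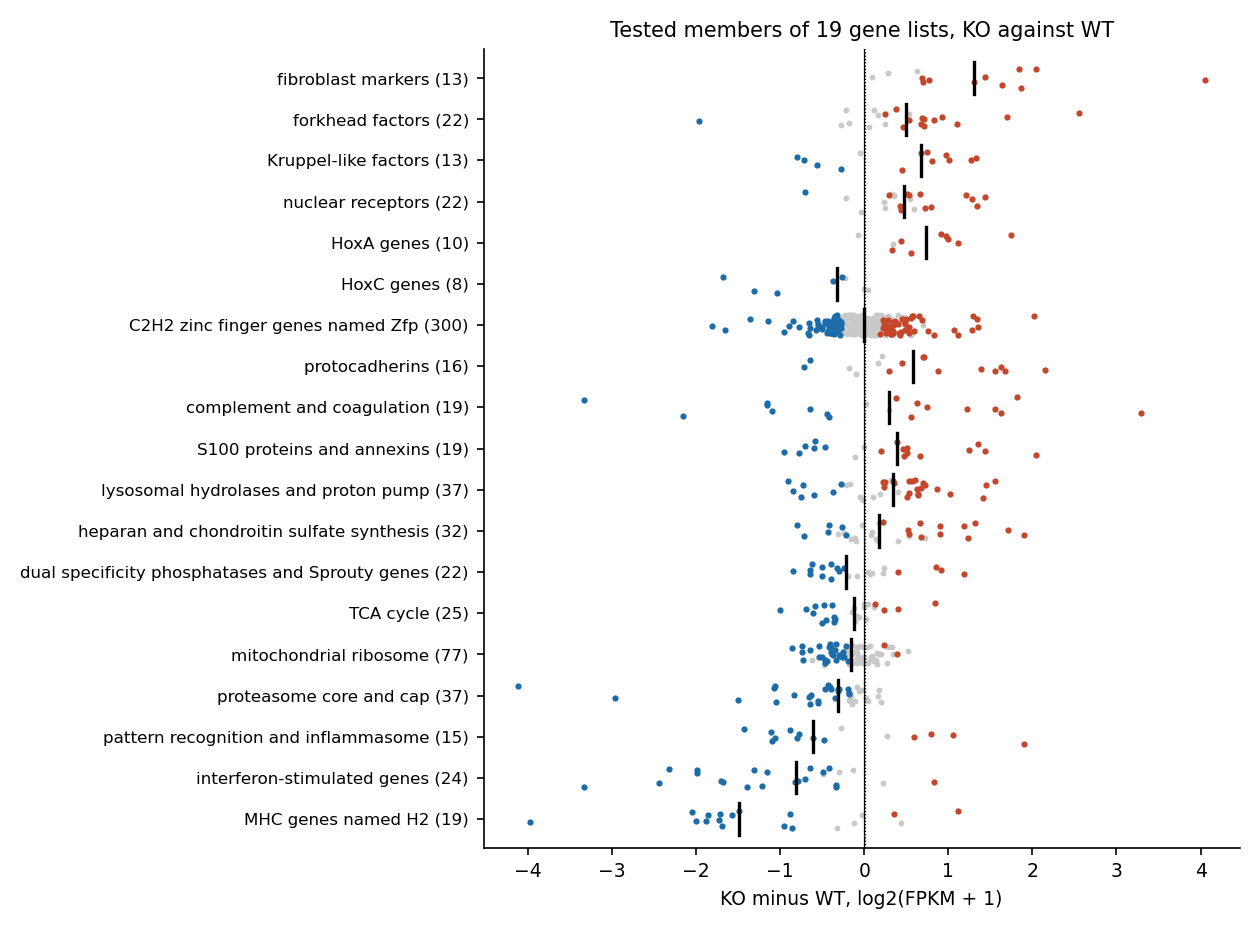
Differences (KO minus WT, log2(FPKM + 1)) of the tested members of 19 gene lists, with the number tested in parentheses. Each point is a gene (red called higher, blue called lower, grey not called), black bars are list medians, and the dotted line is the median of all genes (0.01).

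Clotting and complement genes moved far in both directions. Of 19 tested, 9 rose and 8 fell, so that 89.5% were called, against 47.1% of all genes (23.3% higher and 23.8% lower). F3, tissue factor, which starts coagulation, rose 10.3-fold (7.41, 7.60, 7.36 and 7.18 FPKM in WT 1 to 4 and 70.9, 76.2 and 81.3 FPKM in KO 1, 3 and 4, 3.29, adjusted p = 1.8e-10). Tfpi, the inhibitor of the tissue factor pathway, fell (23.6, 17.5, 23.02 and 16.8 FPKM in WT 1 to 4 and 1.03, 1.38 and 0.635 FPKM in KO 1, 3 and 4, -3.33, adjusted p = 6.67e-08). Thbd, thrombomodulin, which turns thrombin towards anticoagulation, rose (0.336, 0.429, 0.415 and 0.782 FPKM in WT 1 to 4 and 4.27, 3.70 and 4.02 FPKM in KO 1, 3 and 4), and F2rl1, a receptor cleaved by clotting and other proteases, fell (4.61, 4.43, 3.42 and 3.53 FPKM in WT 1 to 4 and 0.120, 0.0400 and 0.114 FPKM in KO 1, 3 and 4). All KO libraries lay on one side of all WT libraries in these 4 genes, as in 48.9% of all genes tested. These 4 were taken as called members of the list with the largest differences.

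Lysosomal and calcium-binding genes rose more often than they fell. Of 37 tested lysosomal hydrolases, membrane proteins and proton pump subunits 21 rose and 7 fell, with a median of 0.34 and 15 to 22 higher over the alternatives. The 75.7% called lay above the 47.1% of all genes (23.3% higher and 23.8% lower). Beside Lamp1, the β-hexosaminidase gene Hexa measured 29.2, 26.2, 28.4 and 28.8 FPKM in WT 1 to 4 and 80.2, 74.3 and 82.5 FPKM in KO 1, 3 and 4 (1.55, adjusted p = 1e-08) and the lysosomal channel gene Mcoln1 measured 13.8, 17.6, 16.8 and 19.4 FPKM in WT 1 to 4 and 43.0, 40.3 and 47.1 FPKM in KO 1, 3 and 4 (1.42, adjusted p = 1.02e-06). The call of Gaa, acid α-glucosidase (1.01), was lost without KO 3 or without KO 4 (adjusted p = 0.0509 and 0.0836), and its groups overlapped. Of 19 S100 proteins and annexins 11 rose and 6 fell (median 0.38, 89.5% called). S100a16 measured 1.27, 1.11, 1.52 and 2.40 FPKM in WT 1 to 4 and 10.1, 9.07 and 7.66 FPKM in KO 1, 3 and 4, whereas Anxa2 fell (1143, 1111, 1207 and 1060.0 FPKM in WT 1 to 4 and 718, 678 and 686 FPKM in KO 1, 3 and 4, -0.60, adjusted p = 5.04e-05).

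Genes of the proteasome and of the mitochondrial ribosome were more often lower than higher. Of 37 proteasome subunits tested none rose and 23 fell (median -0.31), and after centring by position 24 fell and 1 rose. The 62.2% called lay above the 47.1% of all genes (23.3% higher and 23.8% lower). The lowest were the immunoproteasome subunits Psmb8 (-4.12) and Psmb9 (-2.96), which are sums of 4 loci each, and Psmb10 (18.3, 33.9, 23.3 and 51.3 FPKM in WT 1 to 4 and 5.90, 11.97 and 10.3 FPKM in KO 1, 3 and 4, -1.51, adjusted p = 0.00167). Psmc6, an ATPase of the proteasome cap, lies on chromosome 14 and measured 211, 188, 201 and 167 FPKM in WT 1 to 4 and 88.2, 83.6 and 79.6 FPKM in KO 1, 3 and 4 (-1.08, adjusted p = 2.52e-06). Of 77 mitochondrial ribosomal proteins 2 rose and 27 fell (median -0.16, and 26 lower after centring), none by 2-fold. The 37.7% called lay below the 47.1% of all genes. The lowest were Mrpl4 (-0.86), Mrps16 (-0.74, a gene of chromosome 14 whose call was lost after centring), Mrps34 (-0.74) and Mrps36 (-0.73).

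Of 25 genes of the tricarboxylic acid cycle and pyruvate entry 4 rose and 11 fell (median -0.12, and 1 and 11 after centring). The 60% called lay above the 47.1% of all genes (23.3% higher and 23.8% lower). Pdhb, a subunit of pyruvate dehydrogenase, measured 80.9, 81.8, 83.1 and 76.0 FPKM in WT 1 to 4 and 38.5, 36.5 and 35.5 FPKM in KO 1, 3 and 4 and fell (-1.01, adjusted p = 2.97e-07), and it lies on chromosome 14, as does Sucla2 (-0.70). Sdha, a subunit of succinate dehydrogenase, fell by 0.61, and Idh2, the mitochondrial isocitrate dehydrogenase, rose (57.4, 74.0, 65.7 and 76.0 FPKM in WT 1 to 4 and 113, 114 and 116 FPKM in KO 1, 3 and 4, 0.84, adjusted p = 7.01e-06). Serine, one-carbon and nucleotide genes had 5 of 30 higher and 8 lower, and the 43.3% called lay close to the 47.1% of all genes.

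Detoxifying enzymes and metal-binding proteins included some of the largest single changes. Of 27 aldehyde dehydrogenases, aldo-keto and carbonyl reductases 10 rose and 8 fell (median 0.02, which changed sign after centring and without scaling). Of these 66.7% were called, against 47.1% of all genes. Cbr3 went against its relative Cbr2 (8.47, 8.35, 9.24 and 8.51 FPKM in WT 1 to 4 and 1.71, 1.11 and 1.11 FPKM in KO 1, 3 and 4, -2.0, adjusted p = 5.31e-07). Nqo1, a quinone reductase, rose (2.84, 2.44, 3.12 and 1.92 FPKM in WT 1 to 4 and 10.1, 8.04 and 7.58 FPKM in KO 1, 3 and 4), and Akr1c14 rose (1.89). Among glutathione enzymes 8 of 27 rose and 8 fell (11 and 6 after centring, with the median changing sign), close to the 23.3% higher and 23.8% lower of all genes. The microsomal transferase gene Mgst1 measured 1.99, 1.91, 3.06 and 2.014 FPKM in WT 1 to 4 and 19.04, 16.6 and 19.7 FPKM in KO 1, 3 and 4 (2.68, adjusted p = 1.81e-08), while Gstm5 fell (81.2, 74.4, 87.5 and 64.0 FPKM in WT 1 to 4 and 27.1, 27.7 and 25.01 FPKM in KO 1, 3 and 4). The metallothioneins Mt1 and Mt2, which bind zinc and copper, rose by 2.84 and 2.84 (adjusted p = 0.000446 and 0.000408). Mt1 measured 10.4, 20.5, 13.8 and 48.5 FPKM in WT 1 to 4 and 86.8, 133 and 219 FPKM in KO 1, 3 and 4, with WT 1 lowest and WT 4 highest, and its groups did not overlap. Ftl1, the light chain of ferritin, measured 206, 325, 259 and 484 FPKM in WT 1 to 4 and 622, 749.7 and 1016 FPKM in KO 1, 3 and 4 and also differed within groups (1.46, adjusted p = 0.000795). Cyp1b1, a cytochrome P450 of many mesenchymal cells, measured 93.0, 87.2, 88.3 and 81.7 FPKM in WT 1 to 4 and 179, 177.6 and 200 FPKM in KO 1, 3 and 4.

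Enzymes that build sugar chains of proteoglycans were more often higher. Of 32 tested genes of heparan and chondroitin sulfate synthesis 12 rose and 6 fell (median 0.17, and 12 and 2 after centring). Of these 56.25% were called, against 47.1% of all genes (23.3% higher and 23.8% lower). Ext1, which extends heparan sulfate, measured 26.0, 24.3, 28.3 and 22.8 FPKM in WT 1 to 4 and 58.2, 58.2 and 54.3 FPKM in KO 1, 3 and 4 (1.24, adjusted p = 3.19e-07). The sulfotransferase genes Chst1 (1.91) and Chst3 (1.32) and Csgalnact1 (1.70), which starts chondroitin chains, rose from lower levels. Of 24 sphingolipid and ganglioside genes 9 rose and 10 fell (79.2% called). The sphingomyelinase gene Smpd3 was highest (1.33) and Ugt8a, which makes galactosylceramide, lowest (3.11, 3.78, 3.93 and 2.77 FPKM in WT 1 to 4 and 0.269, 0.526 and 0.554 FPKM in KO 1, 3 and 4, -1.55).

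Ion channels and contacts between cells changed in few members, since most were too low to test. Of 92 potassium channel genes 14 were tested, and 5 rose and 5 fell (71.4% called, against 47.1% of all genes). Kcnf1 and Kcnh2 rose (0.945, 1.21, 1.02 and 1.34 FPKM in WT 1 to 4 and 9.85, 13.1 and 12.8 FPKM in KO 1, 3 and 4 for Kcnf1 and 0.263, 0.252, 0.108 and 1.01 FPKM in WT 1 to 4 and 5.97, 5.89 and 7.79 FPKM in KO 1, 3 and 4 for Kcnh2). Of 8 sodium and calcium channel genes tested 5 rose and none fell, with Cacna1g highest (1.32). Of 16 protocadherins tested 10 rose and 2 fell (median 0.58). The highest, Pcdhga4 and Pcdhgc5, are genes of the γ cluster on chromosome 18, and their transcripts share exons, so the split of reads between them is uncertain (2.15 and 1.68). The number of protocadherins called higher ranged from 3 to 10 over the alternatives. The channel gene Panx1 fell (10.7, 7.95, 9.43 and 8.89 FPKM in WT 1 to 4 and 2.004, 2.56 and 2.65 FPKM in KO 1, 3 and 4), and the junction protein gene F11r fell (29.4, 29.6, 34.6 and 28.8 FPKM in WT 1 to 4 and 12.3, 10.7 and 9.80 FPKM in KO 1, 3 and 4). Of 27 kinesins 6 rose and 12 fell, against 23.3% higher and 23.8% lower of all genes. The neuronal motors Kif1a (0.621, 0.802, 0.735 and 1.03 FPKM in WT 1 to 4 and 9.94, 10.6 and 13.2 FPKM in KO 1, 3 and 4) and Kif5c (1.40) were the highest.

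Signalling genes changed in small groups. Of 22 dual specificity phosphatases and Sprouty genes, which dampen MAP kinase signalling, 4 rose and 11 fell (median -0.22, and 6 and 8 after centring). Of these 68.2% were called, against 47.1% of all genes (23.3% higher and 23.8% lower). Dusp14 was lowest (27.7, 34.9, 27.2 and 35.3 FPKM in WT 1 to 4 and 13.8, 17.1 and 16.3 FPKM in KO 1, 3 and 4) and Dusp5 highest (2.995, 4.15, 3.40 and 5.03 FPKM in WT 1 to 4 and 8.35, 9.44 and 10.3 FPKM in KO 1, 3 and 4). Of the 22 FGF ligands 4 were tested, and Fgf7 (-1.07), Fgf5 (-1.01) and Fgf18 (-0.79) fell while Fgf10 rose (0.47). The call of Fgf18 was lost after centring. Tnfrsf11b, the decoy receptor osteoprotegerin, rose from at most 0.108 FPKM in WT to 4.71, 3.89 and 3.95 FPKM in KO 1, 3 and 4. Il6st, the shared receptor subunit of the interleukin 6 family, measured 68.0, 61.3, 67.1 and 59.8 FPKM in WT 1 to 4 and 28.4, 26.3 and 25.02 FPKM in KO 1, 3 and 4 and fell (-1.14, adjusted p = 8.45e-07). In the retinoic acid pathway Stra6, the receptor for retinol-binding protein, fell (3.297, 4.74, 4.47 and 5.60 FPKM in WT 1 to 4 and 0.293, 0.305 and 0.245 FPKM in KO 1, 3 and 4) and the carrier gene Crabp2 rose (4.09, 3.38, 4.18 and 3.71 FPKM in WT 1 to 4 and 10.8, 10.6 and 10.3 FPKM in KO 1, 3 and 4).

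Immune sensing and antigen presentation genes were more often lower than higher. Of 15 genes of pattern recognition and the inflammasome 4 rose and 9 fell (median -0.61), against 23.3% higher and 23.8% lower of all genes. Ddx58, the RNA sensor RIG-I, measured 17.1, 15.8, 17.8 and 14.3 FPKM in WT 1 to 4 and 5.30, 4.79 and 4.87 FPKM in KO 1, 3 and 4 (-1.44, adjusted p = 4.29e-07), whereas Tlr1, a receptor for bacterial lipopeptides, rose (1.28, 1.09, 1.20 and 0.794 FPKM in WT 1 to 4 and 6.39, 6.21 and 6.44 FPKM in KO 1, 3 and 4). Of 24 interferon-stimulated genes 1 rose and 19 fell (median -0.81), between 12 and 21 over the alternatives. Cxcl10, a chemokine induced by interferon, measured 30.7, 34.5, 35.3 and 40.2 FPKM in WT 1 to 4 and 2.50, 2.50 and 2.17 FPKM in KO 1, 3 and 4. Of 19 H2 genes 2 rose and 13 fell (median -1.49), and several of them are sums of more than 1 locus.

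Markers of other mesenchymal fates were read next. Only 2 of 8 osteogenic markers were tested. Spp1, osteopontin, rose (8.24, 7.04, 7.32 and 8.13 FPKM in WT 1 to 4 and 76.4, 73.0 and 60.8 FPKM in KO 1, 3 and 4, 3.12, adjusted p = 1.99e-09) and Runx2 rose by 0.52. The other 6 were too low to test, and Ibsp and Dmp1 among them were listed at 0 in all 7 libraries. Of the adipogenic markers 3 of 8 were tested and all 3 rose: Lpl, lipoprotein lipase (0.788, 0.683, 0.962 and 0.830 FPKM in WT 1 to 4 and 9.46, 9.79 and 10.4 FPKM in KO 1, 3 and 4), Pparg (6.85, 6.03, 5.17 and 6.62 FPKM in WT 1 to 4 and 15.5, 16.7 and 13.6 FPKM in KO 1, 3 and 4) and Fabp4, whose call was lost without KO 3 (1.10, and 0.77 with adjusted p = 0.0703 without it). Adipoq, Cebpa and Plin1 were too low to test, and Cidec and Cd36 were listed at 0 in all 7 libraries. Col2a1, a collagen of cartilage, measured 1.98, 3.01, 2.81 and 5.27 FPKM in WT 1 to 4 and 18.6, 24.6 and 29.8 FPKM in KO 1, 3 and 4, while Matn1, Col9a1 and Hapln1 were listed at 0 in all 7. Of the 8 chondrogenic markers only 2 were tested, and the one beside Col2a1, Sox9, was not called (0.20). Map2 rose (1.44, a sum of 2 loci) and Stmn2 fell (-1.58), both genes of neurons that these fibroblast libraries held at low levels.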

How the data were processed

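RNA from 4 WT, 4 Het and 3 KO libraries was measured by stranded mRNA sequencing. The authors aligned reads with TopHat2 2.1.0 to GRCm38.p4 and estimated FPKM with Cufflinks 2.2.1, per the submitters' processing notes, which also name Cuffdiff. The deposited FPKM of a gene is its estimate in 1 library, and the interval bounds deposited beside it come from the same program. FPKM hold no read counts, so depth was read only relative to WT 1, from the steps of low values, and Cufflinks can list a gene at 0 where the estimate failed (at most 7 loci in a library). FPKM of 48892 loci were summed by symbol. For WT 1, symbols of 31 loci were deposited as dates, and were read from WT 2 by locus.

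Values were scaled by the median of ratios over 13981 genes, kept where at least 3 libraries had 1 FPKM, and tested as log2(FPKM + 1) with limma 3.58.1 (R 4.3.3, trend, all 11 libraries, KO minus WT, Benjamini-Hochberg, threshold 0.05). Printed levels are the deposited FPKM before scaling, and a fold is a ratio of group means. The log2(FPKM + 1) scale understates changes of low genes. Tables were made with Python 3.11.15, pandas 2.3.3, numpy 2.4.6 and matplotlib 3.10.9.

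The genes named were, outside actin and contractile genes, the 12 highest and 12 lowest called genes with a mean of 5 FPKM and no overlap, 12 switched on and 12 off, 8 regulators each way, up to 4 per list, Actb and its neighbours, 5 sex-linked genes, and the 8 largest changes each way among genes over 100 FPKM. Other switched genes, Fmod and the members of runs were named after their values were seen. Members and lists were chosen with earlier results of these data known. The procedure was also run on simulated data for this comparison (14940 genes, of which 200 were changed). It called 64.2% of the genes given a 1.5-fold change, 89.6% at 2-fold and 100% at 4-fold. Of all its calls 7.65% were false, which is above the threshold of 0.05. The real comparison called 7041 genes, far more than were changed in the simulation, so these rates may not hold for it. Alternatives are given in the closing section.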

Additional observations from a re-analysis of the deposited data

Results flagged for a closer look

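For each gene named above the 4 WT and the 4 Het libraries were searched for 1 library that stood far from the other 3 of its group. In 288 such groups that varied at all 17 did. Chance alone gives about 1 in 20 groups for normally distributed values, a rate that does not hold for groups near 0. Values are FPKM. Of genes nearly absent in WT, a single library had a trace: Aldh1a7 in WT 1 (0.053), Aldh3a1 in WT 2 (0.0675), Gm34298 in WT 4 (0.0307), Hoxd4 in WT 4 (0.0167) and Jph2 in WT 1 (0.0342), each listed at 0 in the other 3. A group with 3 libraries at 0 and 1 above it is always flagged by this search. Ddx3y was 0.0348 in WT 1 and at most 0.00323 in the others, and Postn was 0.453 in WT 3 against 0.11 to 0.138. WT 3 was also highest in Cthrc1 (54.7 against 48.1 to 48.5), F11r (34.6 against 28.8 to 29.6) and Mgst1 (3.06 against 1.91 to 2.01), while WT 4 was lowest in Ephx2 (2.99 against 3.63 to 3.75). Among Het libraries, Het 1 was lowest in Cbr3 (9.8 against 13.6 to 14.2) and listed at 0 for Foxs1 (0 against 0.151 to 0.167). Het 2 was lowest in Fbxl18 (1.96 against 2.64 to 2.77) and Pparg (3.7 against 4.57 to 4.75). Het 4 was lowest in Pdpn (64.9 against 67.3 to 67.7), and Het 3 was highest in Col6a3 (2.03 against 1.61 to 1.68). The KO group of 3 was too small for this search.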

How the results depend on the processing

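A change of direction was counted for a named gene only where the main fit or the alternative called it. By that count no named gene changed direction under any alternative run. The balance of calls did: 3481 higher and 3560 lower became 3689 and 3604 with a replicate block, 4002 and 3916 without WT 4, and 3421 and 3232 without chromosome 14. Between 5787 and 7918 genes were called when each WT or KO library was left out in turn. The count at least 2-fold lower (404) was 229 with a filter at 5 FPKM and 723 with a pseudocount of 0.1. Genes switched on (20) numbered 125 when off meant under 0.5 FPKM, and 12 or 8 when on meant at least 2 or 5 FPKM; genes switched off (31) numbered 137, 11 and 4. Leaving out 1 library gave 22 to 28 switched on and 32 to 41 switched off. These counts could not fall, because the rule requires every library of both groups to pass. Of the 254 named genes that were called, 20 lost the call in at least 1 alternative. Of the list medians 21 changed sign somewhere, none of those with a size of at least 0.3. Deviations from the group mean of same-numbered KO and WT libraries correlated at 0.33 (number 1), -0.05 (number 3) and 0.35 (number 4). Those of differently numbered libraries correlated between -0.40 (KO 1 with WT 4) and 0.17 (KO 1 with WT 3). The values for numbers 1 and 4 were thus the highest of all KO and WT pairs, and that for number 3 was not. Whether the numbers mark a shared batch or handling was not tested. With a replicate block 7293 genes were called, 6741 of them shared. Centring by position and the settings without chromosome 14 were chosen after the data were seen, and for chromosome 14 itself the median stayed between -0.73 and -0.69. FPKM without counts limit what can be said of low genes.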
